A study of Homo sapiens with 4 samples.

Results

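Expression of 9 genes for the synthesis, storage, uptake and breakdown of catecholamines was compared between SK-N-BE(2) cells that carried a scrambled control hairpin (shNC) and cells that carried a hairpin against METTL14 (shMETTL14). The genes were grouped by function, with earlier results of these data known, and no measured value entered the rule that picked them. They were TH, DDC, DBH, SLC18A1, SLC18A2, SLC6A2, MAOA, GCH1 and CYB561, that is, 9 of the 60671 gene IDs in the deposited table. All 9 were expressed highly enough to be tested, among 16309 tested genes in all. SK-N-BE(2) is a long-established MYCN-amplified line from a human neuroblastoma, and the METTL14 protein works with METTL3 to add the m6A mark (N6-methyladenosine) to RNA. For each group there were 2 libraries of total RNA, read as paired ends. The study describes its knockdown lines as cells infected with a pLKO.1 lentivirus and selected in puromycin, and it used more than 1 METTL14 hairpin. Which of these hairpins was in the cells sequenced is not stated, so an effect of METTL14 loss and an effect of that hairpin alone cannot be told apart. Nothing in the labels says that the libraries of a group came from separate cultures, so p-values measure the spread between these libraries, which may be technical.

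Catecholamines are made from tyrosine in a short chain of steps. Tyrosine hydroxylase (TH) makes L-DOPA with the help of the cofactor tetrahydrobiopterin, aromatic L-amino acid decarboxylase (DDC) turns L-DOPA into dopamine, and dopamine β-hydroxylase (DBH) turns dopamine into noradrenaline inside vesicles. GTP cyclohydrolase 1 (GCH1) opens the pathway to the cofactor, and cytochrome b561 (CYB561) carries electrons across the vesicle membrane to the ascorbate that DBH uses. The vesicular monoamine transporters VMAT1 (SLC18A1) and VMAT2 (SLC18A2) load the amines into vesicles, the noradrenaline transporter NET (SLC6A2) takes released noradrenaline back up, and monoamine oxidase A (MAOA) breaks amines down in the cell. Neuroblastoma arises from the sympathoadrenal lineage, whose cells use this pathway, and its uptake of noradrenaline analogues and its catecholamine breakdown products are used in the clinic.

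The libraries held between 18925786 and 19886214 counts in genes. METTL14 (ENSG00000145388) had 753 and 754 counts in the shNC libraries and 303 and 321 in the shMETTL14 libraries, and its level fell to 41.7% of the control (log2 fold change -1.26, SE 0.0832, edgeR adjusted p 3.6e-11). The cells carried the markers of noradrenergic neuroblasts. All 7 markers reported (HAND2, GATA3, ISL1, STMN2, ELAVL4, CHGA and MYCN) were abundant. Their summed level, in CPM (counts scaled to a common library size of 1e+06), was 6080 and 5940 in the shNC libraries and 6480 and 6520 in the shMETTL14 libraries. MYCN gave the largest share of this sum, at a mean of 2620 CPM in shNC and 3170 CPM in shMETTL14. All 7 markers were called (edgeR adjusted p under 0.05), as were 52.5% of all tested genes. STMN2, MYCN, ISL1 and ELAVL4 rose and CHGA, HAND2 and GATA3 fell, with CHGA at 69.1% and STMN2 at 127% of the control. Of 6 Schwann cell markers, SOX10 had 0 counts in every library and the summed level was between 3.83 and 5.82 CPM. S100B was the Schwann marker called, at -0.62 (edgeR adjusted p 0.0483), and it lost the call in 5 of 11 alternative fits. Of 6 markers of cholinergic sympathetic neurons, the summed level was 11.2 and 9.3 CPM in the shNC libraries and 13 and 14.4 CPM in the shMETTL14 libraries. CHAT, which makes acetylcholine, had at most 5 counts, and 1 of the 3 tested was called. This was VIP, a neuropeptide gene, which had 3 and 5 counts in the shNC libraries and 17 and 19 in the shMETTL14 libraries (2.14, edgeR adjusted p 0.00277), and which had an adjusted p of 0.0619 with DESeq2, 0.0585 without shNC library 1 and 0.0511 without shMETTL14 library 2. Of 7 mesenchymal markers, 6 were tested and 5 called, beside the 52.5% of all tested genes that were called. Their summed level was between 2440 and 2560 CPM in every library. Most of this sum was VIM, at a mean of 1940 CPM in shNC and 1980 CPM in shMETTL14. FN1 rose to 137% of the control (edgeR adjusted p 1.2e-08), CD44 fell to 90.4% (edgeR adjusted p 0.00279, and 0.0602 without shMETTL14 library 1) and COL1A1 fell to 71.8% (edgeR adjusted p 0.00222, and 0.0629 with DESeq2). COL1A2 and YAP1 had at most 18 and 16 counts and were called higher and lower, but neither was called with DESeq2, without shNC library 1 or without shMETTL14 library 2. VIM was not called and PRRX1 had at most 3 counts. The part of these marker changes in the values of the catecholamine genes was not tested.

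The pathway did not move as a block. Of the 9 genes, 5 fell (TH, DBH, SLC18A2, MAOA and GCH1), 2 rose (SLC18A1 and SLC6A2) and 2 were not called (DDC and CYB561), by edgeR's quasi-likelihood test at an adjusted p under 0.05 over all tested genes. Across all tested genes, 52.5% were called, 25.3% lower and 27.2% higher in shMETTL14 cells. The median log2 fold change of the 9 genes was -0.28, where that of all tested genes was -0.001. Their median absolute log2 fold change was 0.38, against 0.30 for all tested genes. The groups did not overlap for any of the 9, as was so for 75.5% of all tested genes. SLC18A2 was the member with a change of at least 2-fold, and 5.99% of all tested genes were called and lower by that much. These are RNA levels of whole cultures, in which fewer cells of a type and less RNA per cell cannot be told apart.

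**Figure D1:**
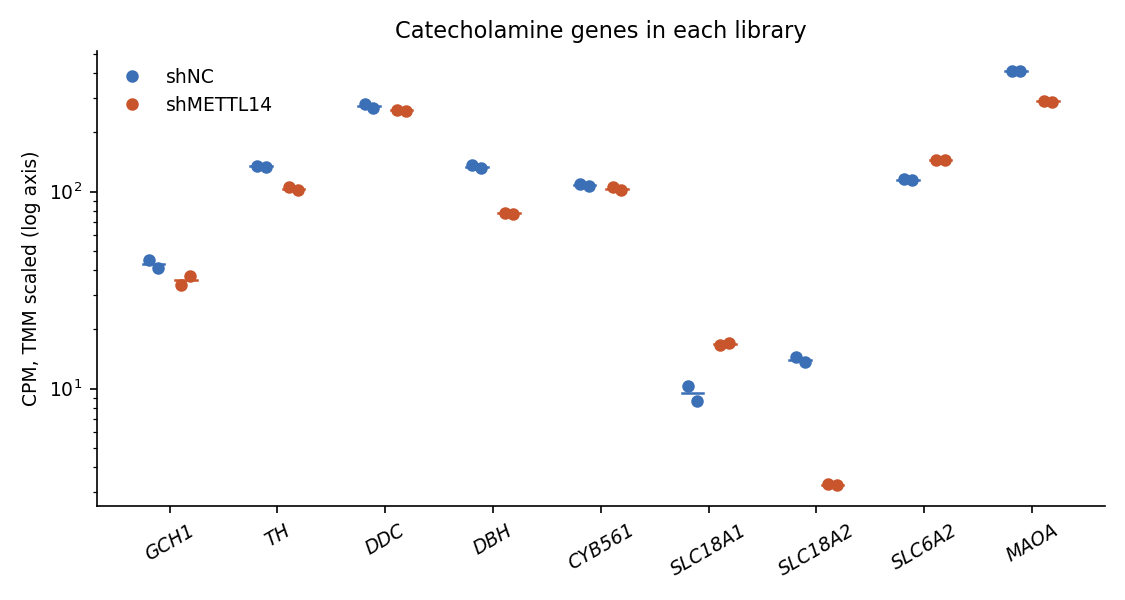
Level of each catecholamine gene in each library, in CPM after TMM scaling on a log axis, for shNC (blue) and shMETTL14 (orange). Points are libraries and short lines are group means. The groups lie apart most for SLC18A2, at 14.4 and 13.6 CPM against 3.27 and 3.22 CPM, and lie closest for DDC and CYB561.

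**Figure D2:**
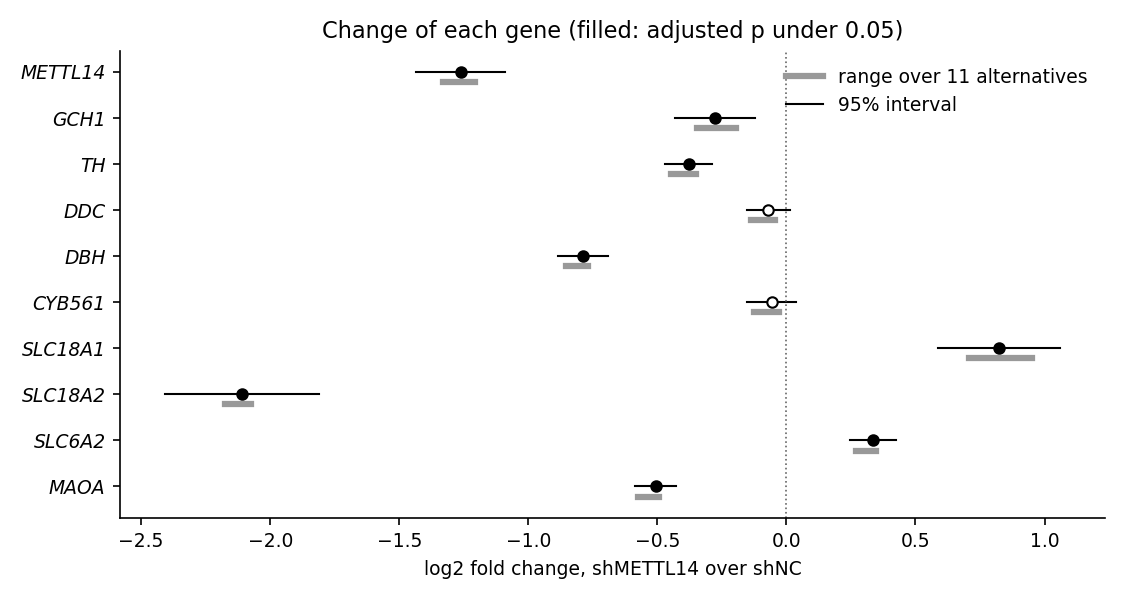
Log2 fold change of METTL14 and of each catecholamine gene, shMETTL14 over shNC. Black lines are 95% intervals from the edgeR fit, filled points had an adjusted p under 0.05, and grey bars show the range over 11 alternative fits, which stayed on 1 side of 0 for every gene shown.

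Along the synthesis chain, the genes for both hydroxylation steps fell and the decarboxylation step between them was not called. GCH1 (ENSG00000131979) lies on the minus strand of chromosome 14 from 54842008 to 54902852 (GENCODE 29, GRCh38). It had 896 and 782 counts in the shNC libraries and 656 and 720 in the shMETTL14 libraries. The level of GCH1 fell from 42.9 ± 2.91 CPM to 35.5 ± 2.76 CPM (SD, n = 2 each), a log2 fold change of -0.28 (SE 0.075, edgeR adjusted p 0.00386). Of the members called, GCH1 had the smallest change and the one least clear of the spread between libraries. With DESeq2 its adjusted p was 0.0592, and without shMETTL14 library 1 its log2 fold change was -0.19 (edgeR adjusted p 0.0809).

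TH (ENSG00000180176, minus strand of chromosome 11 from 2163929 to 2171877) encodes the rate-limiting enzyme of the pathway. It had 2700 and 2553 counts in the shNC libraries and 2049 and 1964 in the shMETTL14 libraries. The TH level fell to 76.9% of the control, from 134 ± 1.51 CPM to 103 ± 1.84 CPM (SD, n = 2 each), with a log2 fold change of -0.38 (SE 0.0444, edgeR adjusted p 2.7e-07). The 2 libraries of a group were close and the groups did not overlap. Of all tested genes, 40.5% had a larger absolute log2 fold change than TH.

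DDC (ENSG00000132437, minus strand of chromosome 7 from 50458436 to 50565457) acts on L-DOPA and also on the serotonin precursor. It had 5512 and 5079 counts in the shNC libraries and 5080 and 4940 in the shMETTL14 libraries. The log2 fold change of DDC was -0.07 (SE 0.04, edgeR adjusted p 0.149), with a 95% interval from -0.15 to 0.01. Scaling decided this call: with upper quartile scaling DDC passed the test as lower, at -0.14 (edgeR adjusted p 0.00642), and with library size alone, at -0.12 (edgeR adjusted p 0.0197).

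DBH (ENSG00000123454, plus strand of chromosome 9 from 133635348 to 133659344) had the smallest adjusted p of the 9 genes. It had 2709 and 2514 counts in the shNC libraries and 1521 and 1484 in the shMETTL14 libraries. The DBH level fell to 57.9% of the control, from 134 ± 3.27 CPM to 77.4 ± 0.406 CPM (SD, n = 2 each), with a log2 fold change of -0.79 (SE 0.0461, edgeR adjusted p 5.5e-12). The gap between the groups was many times the spread within them. CYB561 (ENSG00000008283, minus strand of chromosome 17 from 63432304 to 63446378), which supports DBH in the vesicle, was nearly level, with 2166 and 2043 counts in the shNC libraries and 2053 and 1966 in the shMETTL14 libraries. The log2 fold change of CYB561 was -0.06 (SE 0.0454, edgeR adjusted p 0.305), with a 95% interval from -0.15 to 0.04. With upper quartile scaling CYB561 passed the test as lower, at -0.12 (edgeR adjusted p 0.0256).

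Ratios of counts within a library do not depend on scaling, and they show how the members shifted against each other. The ratio of DBH to TH counts was 1.00 and 0.985 in the shNC libraries and 0.742 and 0.756 in the shMETTL14 libraries. DBH thus made up 50.1% and 49.6% of the reads of this pair in shNC, and 42.6% (exact 95% binomial interval 41 to 44.2) and 43% (41.4 to 44.7) in shMETTL14. The ratio of DDC to TH went the other way, from 2.04 and 1.99 to 2.48 and 2.52. MAOA and TH stayed closer together, with ratios of 3.01 and 3.06 against 2.75 and 2.80. In each of these pairs the shMETTL14 libraries lay on 1 side of the shNC libraries. With 2 libraries against 2, an exact permutation test cannot give a two-sided p below 0.333, so none is given, and the intervals cover counting error only.

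**Figure D3:**
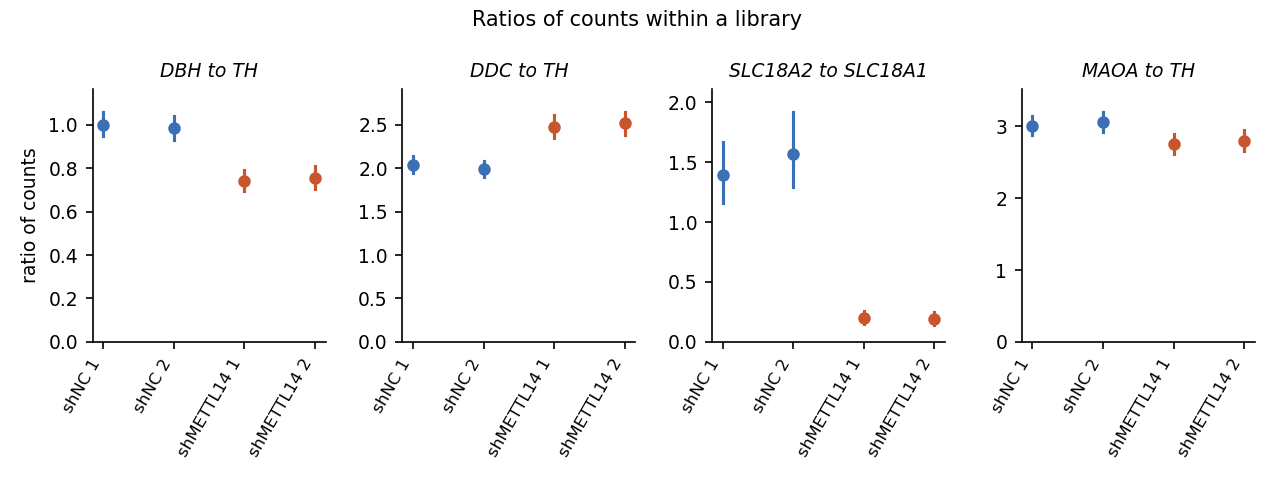
Ratio of counts of 2 members in each library, with exact 95% binomial intervals for counting error, for shNC (blue) and shMETTL14 (orange). The ratio of SLC18A2 to SLC18A1 goes from 1.39 and 1.57 to 0.197 and 0.188, and the other ratios move less.

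The vesicular transporters moved in opposite directions. VMAT1 is the form known best from adrenal chromaffin cells and VMAT2 the form known best from monoaminergic and sympathetic neurons. SLC18A2, which encodes VMAT2 (ENSG00000165646, plus strand of chromosome 10 from 117241073 to 117279430), had 287 and 261 counts in the shNC libraries and 64 and 62 in the shMETTL14 libraries. The SLC18A2 level fell 4.31-fold, from 14 ± 0.544 CPM to 3.25 ± 0.0333 CPM (SD, n = 2 each), with a log2 fold change of -2.11 (SE 0.144, edgeR adjusted p 6.6e-11). Of all tested genes, 1.02% had a lower log2 fold change. SLC18A1, which encodes VMAT1 (ENSG00000036565, minus strand of chromosome 8 from 20144855 to 20183206), had 206 and 166 counts in the shNC libraries and 325 and 329 in the shMETTL14 libraries. The SLC18A1 level rose 1.77-fold, from 9.5 ± 1.18 CPM to 16.8 ± 0.351 CPM (SD, n = 2 each), with a log2 fold change of 0.82 (SE 0.114, edgeR adjusted p 2.6e-06). The shNC libraries differed more than the shMETTL14 libraries for this gene, and without shNC library 1 or 2 its log2 fold change was 0.95 or 0.71.

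SLC18A2 had more reads than SLC18A1 in both shNC libraries and fewer in both shMETTL14 libraries. It made up 58.2% (exact 95% binomial interval 53.7 to 62.6) and 61.1% (56.3 to 65.8) of the reads of the pair in shNC, and 16.5% (12.9 to 20.5) and 15.9% (12.4 to 19.9) in shMETTL14. The 3′ part of SLC18A2 shares exon bases with PDZD8 on the opposite strand. The shared stretch covers 2157 bases or 52% of the exon length of SLC18A2, and its reads may have been set aside as ambiguous or credited to PDZD8, since the strand setting of the counting is not given in the sources used here. PDZD8 had 1407 and 1255 counts in the shNC libraries and 970 and 974 in the shMETTL14 libraries, a log2 fold change of -0.44 (SE 0.058, edgeR adjusted p 1.3e-06). Its part in the value of SLC18A2 was not tested.

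The start of SLC18A2 is printed here beside the starts of DBH and MAOA, which also fell, and of DDC, which was not called, to show what letters the members share there. Promoter windows of 300 bases, of which 250 lie before the start, came from RefSeq on GRCh38.p14. The table held 9 windows of 5 members (CYB561, DBH, DDC, MAOA and SLC18A2) and none for TH, SLC18A1, SLC6A2 or GCH1. Each window was searched on both strands for 4 motifs, none of which overlaps another in the windows shown: the cyclic AMP response element (CRE, TGACGTCA), the AP-1 site (TGACTCA), the GATA site (AGATAA) and the NR4A response element (NBRE, AAAGGTCA). The last 100 bases before each start read as follows, 5′ to 3′ on the strand of the gene, with matches in capitals.
SLC18A2 (chr10:117241014-117241113, plus strand): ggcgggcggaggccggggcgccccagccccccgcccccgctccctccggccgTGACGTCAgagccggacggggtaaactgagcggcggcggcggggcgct
DBH (chr9:133636263-133636362, plus strand): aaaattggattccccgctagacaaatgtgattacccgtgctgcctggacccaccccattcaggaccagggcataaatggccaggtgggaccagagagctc
MAOA (chrX:43656199-43656298, plus strand): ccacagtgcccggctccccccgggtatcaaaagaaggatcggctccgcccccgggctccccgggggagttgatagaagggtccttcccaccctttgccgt
DDC, the upstream one of its starts (chr7:50565406-50565505, minus strand): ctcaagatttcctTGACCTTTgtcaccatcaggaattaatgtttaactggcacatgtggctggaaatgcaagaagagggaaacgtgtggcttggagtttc

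SLC18A2 held the CRE from 48 to 41 bases before its start, a motif found in 1.85% of all 35116 promoter windows. DDC held the NBRE, on its reverse strand, from 87 to 80 bases before the upstream of its 2 listed starts, a motif found in 1.22% of all windows. The other 7 windows of members held none of the 4 motifs, and AP-1 and GATA sites, which occurred in 4.95% and 10.3% of all windows, were in none of the 9. A match is a run of letters and was not tested as a binding site.

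Of the genes for reuptake and breakdown, the transporter rose and the oxidase fell. SLC6A2 (ENSG00000103546, plus strand of chromosome 16 from 55655604 to 55706192) encodes NET, the protein that takes up noradrenaline and the imaging agent MIBG. It had 2320 and 2180 counts in the shNC libraries and 2846 and 2796 in the shMETTL14 libraries. The SLC6A2 level rose 1.26-fold, from 115 ± 1.8 CPM to 145 ± 0.0523 CPM (SD, n = 2 each), with a log2 fold change of 0.34 (SE 0.0434, edgeR adjusted p 1.1e-06). It shares 17.9% of its exon length with AC136621.1, a model that GENCODE marks as still to be tested by experiment, on the same strand, whose reads cannot be told from those of SLC6A2 there. AC136621.1 had 489 and 377 counts in the shNC libraries and 687 and 657 in the shMETTL14 libraries, a log2 fold change of 0.65 (SE 0.0906, edgeR adjusted p 3.3e-06).

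MAOA (ENSG00000189221, plus strand of chromosome X from 43654907 to 43746824) had the highest CPM of the 9 genes. It had 8115 and 7803 counts in the shNC libraries and 5628 and 5501 in the shMETTL14 libraries. The MAOA level fell to 70.4% of the control, from 407 ± 0.249 CPM to 287 ± 1.14 CPM (SD, n = 2 each), with a log2 fold change of -0.51 (SE 0.0381, edgeR adjusted p 3.2e-10). No annotated gene shares exon bases with MAOA, TH, CYB561, GCH1 or SLC18A1. MAOB, the other monoamine oxidase, had 1 count in 1 shMETTL14 library and 0 in the other 3 libraries.

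Levels of different genes were compared per exon length, as counts per kilobase scaled to the same total in each library (TPM-like). In shNC cells the order from high to low was DDC (284 ± 10.3), MAOA (242 ± 1.53), TH (136 ± 2.47), DBH (116 ± 3.65), SLC6A2 (69.2 ± 1.56), CYB561 (66.5 ± 1.32), GCH1 (47.7 ± 3.57), SLC18A2 (11.1 ± 0.508) and SLC18A1 (7.98 ± 1.04), in TPM-like units with SD and n = 2. No neighbours in this order had libraries that overlapped. These units carry no TMM scaling and serve only to order genes within a group. The vesicular transporters were the lowest members in both groups, and DDC and MAOA came before the others under this length. In shMETTL14 cells the level of DBH was 62.2 ± 0.656, below that of SLC6A2 at 80.7 ± 0.457. The vesicular transporters also changed places there, with SLC18A1 at 13.1 ± 0.203 above SLC18A2 at 2.38 ± 0.037. As an alternative chosen after seeing the data, the bases shared with other genes were left out of the exon length. SLC18A2 was then at 25.3 in shNC and 5.42 in shMETTL14 cells, and the order of the vesicular transporters was the same. No reads were removed for this length, so its levels are too high if reads on the shared bases were counted. Under this length SLC6A2 was at 84.3 in shNC and 98.3 in shMETTL14 cells, and in the latter it came before TH at 96.7. The order of neighbours depended on the length used. With the longest coding transcript, CYB561 at 88.3 came before SLC6A2 at 85 in shNC cells. In shMETTL14 cells TH at 131 then came before MAOA at 128, and CYB561 at 78.3 before DBH at 49.7. Per exon length CYB561 was at 59.1 in shMETTL14 cells, below DBH.

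**Figure D4:**
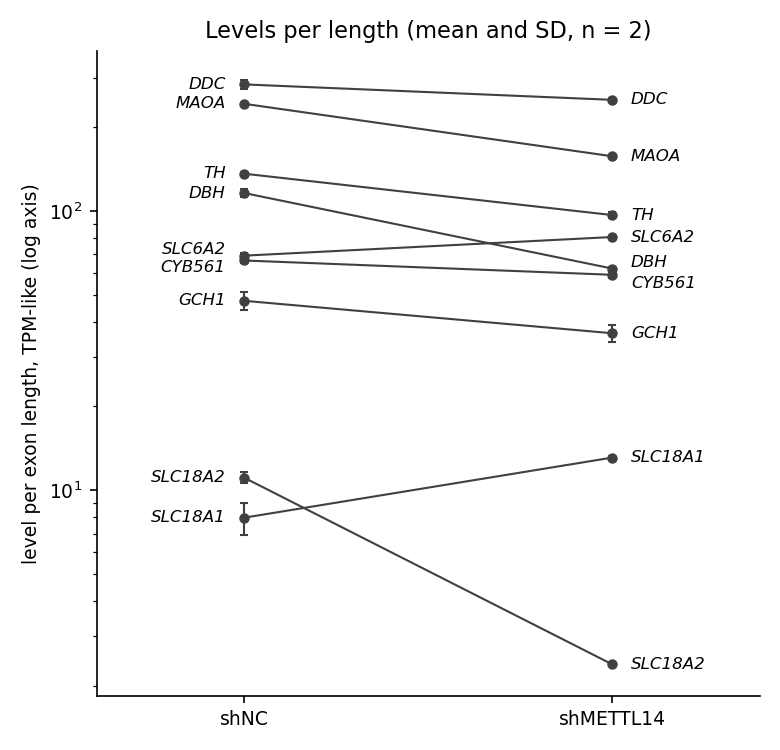
Level of each catecholamine gene per exon length, in TPM-like units on a log axis, as mean and SD of 2 libraries in shNC (left) and shMETTL14 (right). Lines join the means of 1 gene. SLC18A1 and SLC18A2 cross, as do DBH and SLC6A2.

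The genes around the pathway were then counted, in lists of cofactor and copper supply, other synthesis, uptake and breakdown genes and receptors, 39 in all. Of these, 22 were too low to test. Of the 17 tested, 6 rose, 4 fell and 7 were not called, and the share called, 58.8%, was near the 52.5% of all tested genes. The median log2 fold change of the tested genes was 0.01.

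Of the 8 cofactor and copper genes, all were tested, 3 rose and 1 fell, beside the 52.5% of all tested genes that were called. SLC31A1, which brings copper into the cell, had the smallest adjusted p, with 2215 and 2095 counts in the shNC libraries and 2987 and 2897 in the shMETTL14 libraries and a log2 fold change of 0.46 (SE 0.0434, edgeR adjusted p 1.2e-08). ATP7A, which pumps copper into the secretory pathway where DBH acquires it, rose with a log2 fold change of 0.30 (SE 0.0515, edgeR adjusted p 4.6e-05). For both copper transporters the groups did not overlap, as was so for 6 of the 8 genes of this list and 75.5% of all tested genes. PTS, which follows GCH1 in tetrahydrobiopterin synthesis, rose by 0.35 on the log2 scale (SE 0.0661, edgeR adjusted p 1.1e-04). GCHFR, a feedback regulator of GCH1, had 85 and 100 counts in the shNC libraries and 41 and 46 in the shMETTL14 libraries. It fell by 1.08 on the log2 scale (SE 0.222, edgeR adjusted p 3.2e-04), but 75.2% of its exon length is shared with DNAJC17 on the opposite strand. SPR, QDPR, PCBD1 and the ascorbate transporter gene SLC23A2 were not called, with log2 fold changes between -0.14 and 0.03. With upper quartile scaling PCBD1 (edgeR adjusted p 0.0241) and SLC23A2 (0.0084) passed the test as lower, as they did with library size alone (0.0416 and 0.018). PCBD1 also passed without shNC library 1 (edgeR adjusted p 0.0483), and SLC23A2 under the filter of 10 counts a library (0.0397).

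Other routes of synthesis, uptake and breakdown were mostly silent or level. PNMT, which turns noradrenaline into adrenaline, had 6 and 3 counts in the shNC libraries and 1 in each shMETTL14 library and was not tested. The dopamine transporter gene SLC6A3 had at most 4 counts and the serotonin transporter gene SLC6A4 at most 1. SLC29A4, a low-affinity monoamine transporter gene, was expressed and not called, at 59.4 and 60 CPM and a log2 fold change of 0.01 with a 95% interval from -0.10 to 0.13. Of the enzymes that handle the aldehydes made by MAOA, ALDH2 fell slightly (-0.26, edgeR adjusted p 0.0045), AKR1A1 fell (-0.20, edgeR adjusted p 0.0012) and AKR1B1 rose (0.20, edgeR adjusted p 0.00103). ALDH2 had an adjusted p of 0.07 with DESeq2, and without shMETTL14 library 1 its edgeR adjusted p was 0.136. The sulfotransferase genes SULT1A3 and SULT1A4 are near-identical copies whose reads may have been lost, and SULT1A1, SULT1A3 and SULT1A4 had at most 12 counts in any library.

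Of 13 receptor genes for catecholamines, 9 were too low to test, and 5 of the 13 had 0 counts in every library. Of the 4 tested, 2 rose and 1 fell, all at low levels, beside the 52.5% of all tested genes that were called. ADRA2A, which encodes the α2A autoreceptor, had 15 and 6 counts in the shNC libraries and 40 in each shMETTL14 library, a log2 fold change of 1.93 (SE 0.406, edgeR adjusted p 4.0e-04). The shNC libraries set its size, since the log2 fold change of ADRA2A was 2.69 without shNC library 1 and 1.45 without shNC library 2, and the gene is not among those with at least 10 counts throughout. ADRA2B went from 27 and 28 counts to 12 and 9 (-1.37, edgeR adjusted p 0.00823), and DRD2, a dopamine receptor gene, from 151 and 135 to 185 and 193 (0.41, edgeR adjusted p 0.0122). With DESeq2 ADRA2B and DRD2 were not called, at adjusted p of 0.115 and 0.154. Both also lost the call without shNC library 2 (edgeR adjusted p 0.0608 for ADRA2B and 0.0643 for DRD2) and without shMETTL14 library 2 (0.0829 and 0.0578).

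**Figure D5:**
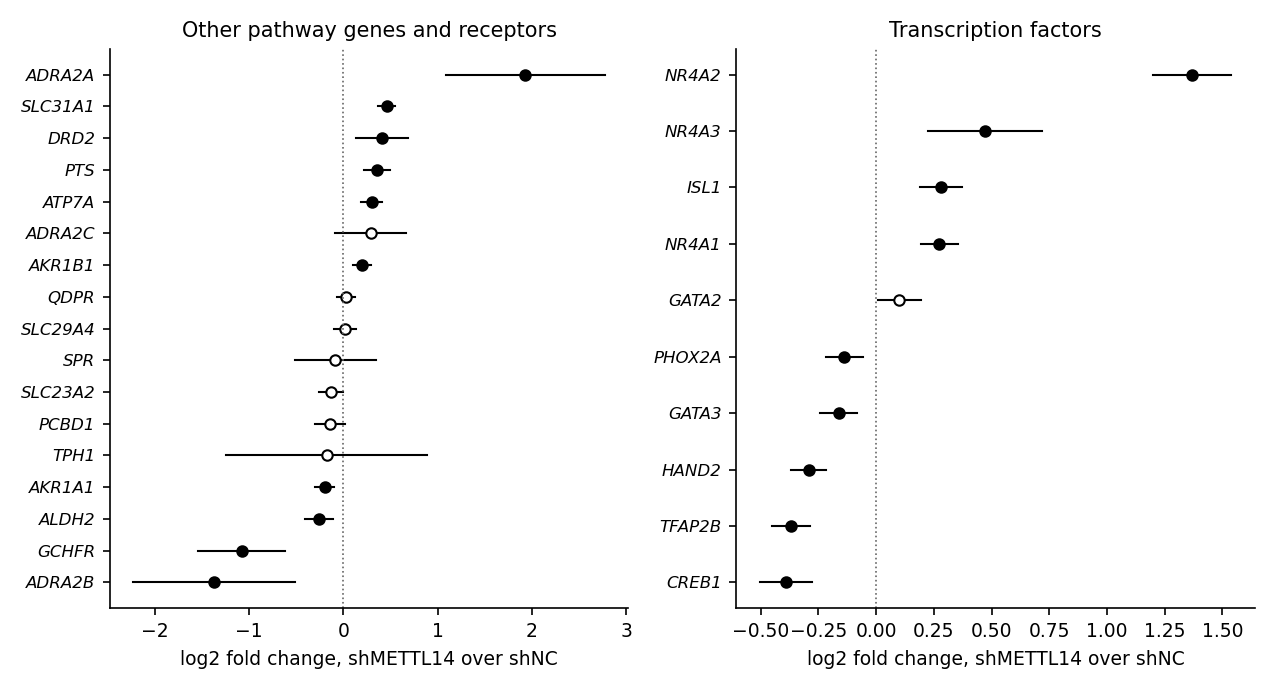
Log2 fold change, shMETTL14 over shNC, of the tested genes around the pathway (left) and of transcription factor genes (right), with 95% intervals from the edgeR fit. Filled points had an adjusted p under 0.05. ADRA2A and NR4A2 lie at the top of their panels at 1.93 and 1.37.

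Transcription factors that are known to act on the TH and DBH genes or to specify noradrenergic neurons were also measured. Of 11 genes on this list, 10 were tested, 4 rose, 5 fell and GATA2 was not called, beside the 52.5% of all tested genes that were called. INSM1 was too low to test, with 5 and 1 counts in the shNC libraries and 0 and 1 in the shMETTL14 libraries. GATA3 fell slightly (-0.16, edgeR adjusted p 0.00141). PHOX2A, a homeodomain factor of noradrenergic neurons, fell slightly (-0.14, edgeR adjusted p 0.0053), and lost the call without shNC library 2 (0.0598) or shMETTL14 library 2 (0.0572). TFAP2B fell with a log2 fold change of -0.37 (edgeR adjusted p 1.0e-07) and HAND2 with one of -0.29 (edgeR adjusted p 6.8e-07). HAND2 shares 24.1% of its exon length with HAND2-AS1 on the opposite strand. HAND2-AS1 had 12481 and 11834 counts in the shNC libraries and 5595 and 5376 in the shMETTL14 libraries. Its part in the value of HAND2 was not tested. CREB1, which binds the CRE, fell by 0.39 on the log2 scale (edgeR adjusted p 3.4e-06). The part of any transcription factor on this list in the values of the members was not tested.

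All 3 NR4A nuclear receptor genes were higher in shMETTL14 cells. NR4A2, which acts on TH in dopamine neurons, had 325 and 314 counts in the shNC libraries and 797 and 842 in the shMETTL14 libraries, a log2 fold change of 1.37 (SE 0.0816, edgeR adjusted p 7.4e-12). NR4A1 rose by 0.27 (edgeR adjusted p 3.4e-06) and NR4A3 by 0.47 (edgeR adjusted p 0.00209) on the log2 scale, the latter with an adjusted p of 0.0522 with DESeq2. ISL1 rose by 0.28 (edgeR adjusted p 1.5e-05). GATA2 had a log2 fold change of 0.10 (edgeR adjusted p 0.0661), and was called higher without shNC library 1 (0.0106) and without shMETTL14 library 1 (0.0247).

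As METTL14 takes part in writing m6A, the members' transcripts were searched for GGACT, a common core of m6A sites, on the RNA strand of the principal coding transcript in GENCODE 29. SLC6A2 and GCH1 held 0 copies, as did 8.35% of 12788 tested coding genes. TH held 3 copies in 1889 bases (1.59 per kilobase), CYB561 held 5 (1.59), DBH 4 (1.06), MAOA 4 (0.996), DDC 2 (0.98), SLC18A2 3 (0.775) and SLC18A1 2 (0.677). The median of the tested coding genes was 0.933 per kilobase. Whether this density bears on which members changed was not tested. The word marks a possible site only, since m6A itself was not measured in these libraries.

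The genes whose 4 library values were most like those of DBH were STC2, CDCA7L and LETMD1, among 3678 genes within 1 log2 unit of its mean CPM. The likeness was the Euclidean distance between log2 CPM values centred on each gene's mean, 0.0264 for STC2, 0.04 for CDCA7L and 0.0452 for LETMD1. With 4 libraries in 2 groups, this measure mostly picks genes with the same difference between groups, and their log2 fold changes were -0.80, -0.78 and -0.77.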

How the data were processed

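RNA of 2 shNC and 2 shMETTL14 libraries of SK-N-BE(2) cells was sequenced by the authors, and 1 table of raw counts per Ensembl gene ID was deposited, without normalization. The submitters' processing notes name HISAT2 2.1.0, StringTie 1.3.6, HTSeq 0.13.5 and edgeR with GRCh38, without giving their roles. The strand setting and the annotation release are not given in the sources used here. The 5 lines that name no gene, between 19.1% and 19.9% of counts in a library, were left out.

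The quasi-likelihood F-test of edgeR 4.0.16 (R 4.3.3) was run on the counts after TMM scaling and filterByExpr at its defaults (minimum count 10, minimum total 15). Benjamini-Hochberg adjustment covered the 16309 tested genes, and genes with an adjusted p under 0.05 were taken as called. DESeq2 1.42.0, other scalings and filters, the replicate number as a block and leaving out each library were alternatives, which for marker genes were added after seeing the data. CPM values use TMM-scaled library sizes. The 95% intervals of a fold change come from the edgeR fit, and those of a ratio cover counting error only. GGACT was searched after results were seen. Gene positions and exon lengths came from GENCODE 29 and promoters from RefSeq. By the naming rule, METTL14, the 9 members, genes of the listed groups, the 3 genes most like the member with the smallest adjusted p and genes overlapping a member could be named. The members and lists were chosen with earlier results of these data known, and some listed genes are not reported here and enter no count of a list.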

Additional observations from a re-analysis of the deposited data

How the results depend on the processing

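METTL14 and the members TH, DBH, SLC18A1, SLC18A2, SLC6A2 and MAOA kept their direction and an adjusted p under 0.05 in all 11 alternative fits. With 1 library left out, a lone library was assumed to vary like the others, and METTL14 ranged from -1.31 to -1.21. The number of members called ran from 6 (DESeq2, and without shMETTL14 library 1) to 9 (upper quartile scaling), where GCH1 was lost or DDC and CYB561 were added. DESeq2 called 5538 genes in all, against 8561 with edgeR, and the cause was not tested. Under upper quartile scaling 8511 of 16309 tested genes were called. The median shift of log2 fold changes, over genes whose mean log2 CPM was 2 or more, was -0.068 under upper quartile scaling and -0.045 with library size alone. Requiring at least a 2-fold change is a stricter limit by construction. It left 1 member, 3 genes around the pathway and 1 transcription factor gene called, in place of 7, 10 and 9. SLC18A2, GCHFR and ADRA2B were lower, and ADRA2A and NR4A2 were higher. Of all 16309 tested genes, 5.99% were called and at least 2-fold lower, and the share at least 2-fold higher is not given here.

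The labels do not say whether libraries with the same replicate number belong together. Across genes Pearson's r of their deviations from the group mean was -0.0018. This shows no broad shared deviation, but it cannot exclude one that is small or limited to few genes. Adding the replicate block, 8926 of 16309 tested genes were called, with 7 members, 10 genes around the pathway and 10 transcription factor genes among them. METTL14 then had a log2 fold change of -1.26. The transcription factor gene added was GATA2 (edgeR adjusted p 0.0195).

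With the longest coding transcript as length, levels in shNC were 348 for DDC, 196 for MAOA, 185 for TH, 92.8 for DBH, 88.3 for CYB561, 85 for SLC6A2, 38.2 for GCH1 and 9.5 for SLC18A2, in TPM-like units. With the exon bases shared with other genes left out of the length, but no reads removed, they were 295 for DDC, 120 for DBH, 84.3 for SLC6A2 and 25.3 for SLC18A2.

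No member changed sign. Of the uncalled genes around the pathway, QDPR was -0.041 under upper quartile scaling and -0.019 with library size alone, and SLC29A4 was -0.053, -0.031 and, under the filter of 10 counts a library, -0.004. Leaving out 1 library at a time, the ranges that crossed 0 were -0.31 to 0.12 for SPR, -0.026 to 0.081 for QDPR, -0.80 to 0.26 for TPH1 and -0.024 to 0.063 for SLC29A4.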
